A study of Mus musculus with 14 samples.

Results

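The 36 genes described here encode the folding, import, quality-control and stress-sensing machinery of the endoplasmic reticulum (ER). They were listed by gene symbol for their known roles and not by a threshold on a measured value, though earlier results of these data were known when the list was made, and are 36 of the 24359 genes used. By role they fall into 11 chaperones and their cofactors, 4 protein disulfide isomerases, 11 genes of the translocon and of precursor processing, 7 genes of ER-associated degradation and 3 stress sensors or their transcription factors. RNA was sequenced from tibialis anterior, a fast muscle of the lower hind leg, of C57Bl/6 mice whose muscle was labelled as follistatin treated or as control. Follistatin, a secreted binding protein, captures activins and myostatin, which restrain muscle growth. Day 3 of treatment was sampled with 3 control libraries and 4 of follistatin, day 7 with 2 of each, and day 14 with 1 control and 2 of follistatin; the series' design joins the 7 libraries of days 7 and 14 as a chronic set. No library differs from another in any labelled item other than treatment and day. The labels do not give the route or form of follistatin, what the controls received, the age or sex of the mice, or whether replicates came from separate animals, so each p-value below measures only the spread between these libraries.

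Proteins bound for the cell surface, the secretory pathway or membranes enter the ER through the Sec61 channel, where their signal peptide is removed, sugars and disulfide bonds are added and chaperones hold them until they fold. When unfolded proteins build up, the sensors IRE1, ATF6 and PERK raise the transcription of chaperones and of the machinery that returns misfolded proteins to the cytosol for degradation, which is known as the unfolded protein response. In muscle fibres the same compartment is continuous with the sarcoplasmic reticulum, the calcium store for contraction.

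Values are FPKM as deposited (sequenced fragments per kilobase of a transcript, scaled to library size), and their sum over a library ran from 364513 to 532859. Without read numbers the absolute depth of a library is unknown. Relative depth within a set was estimated from ratios of FPKM values below 0.5 between libraries. It ran from 0.683 to 1.28 at day 3 and from 0.717 to 1.06 in the chronic set. Of these low values, 79.3% to 83.9% fitted the estimate at day 3 and 53.9% to 65.1% in the chronic set. The lowest share, 53.9%, was that of control day 7 replicate 1, which had the 1.06. The control library of day 7 replicate 1 stood apart, with 16158 genes detected, where every other chronic library had 19383 to 20283, and tests of the chronic libraries are therefore also given without it. Over all genes the chronic calls were 247 higher and 361 lower with it and 23 higher and 20 lower without it. Leaving out another control instead also lowered them, to 29 higher and 33 lower without the day 14 control. They were 70 higher and 75 lower without control day 7 replicate 2. The libraries of day 3 had 15766 to 17161 genes detected, a range that holds 16158. Day 3 and the chronic set thus differed in detection as well as in day, which limits every comparison between them. Fst, which encodes follistatin, stood at 0.808 to 1.42 FPKM in the controls, 49.7 to 67.8 FPKM in the follistatin libraries of day 3, 367 and 407 FPKM in those of day 7, and 1315 and 1421 FPKM in those of day 14. The Fst level and the day of treatment moved together, so their parts in any change with time cannot be told apart.

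Promoter sequences are shown first because many of these genes carry the ER stress response element (ERSE), the binding motif of ATF6 and XBP1 with the CCAAT-binding factor NF-Y. RefSeq promoter windows (GRCm38.p6, 250 bases before to 50 after the start) were found for 28 members, in 29 windows. ERSE was searched on both strands as CCAAT followed, after 9 bases of any kind, by CCACG. It was present in 9 of the 29 member windows (31.0%) and in 39 of all 32851 windows (0.119%). The 9 genes were Hspa5, Hsp90b1, Calr, Canx, Creld2, Dnajc3, Pdia6, Syvn1 and Derl3. ERSE-II, searched as ATTGG, 1 base of any kind and CCACG, was in the windows of Herpud1 and Dnajb11 (6.9% of member windows against 0.0365% of all). The core of the XBP1-binding UPR element, TGACGTGG, was in none of the member windows and in 0.676% of all windows. The members were listed for known roles in the ER and its stress response, so these shares describe the list and test nothing. The sequences below are written 5′ to 3′ on the strand of the gene, with the letters of the motif in capitals; where the capitals read CGTGG and then ATTGG, the match lies on the opposite strand. They come from members that were called higher, from Hsp90b1 with its 2 matches, and from 2 genes of ER degradation that carry the motif and were not called.
Hspa5, chr2:34772017-34772051, forward strand: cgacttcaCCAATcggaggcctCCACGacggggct
Pdia6, chr12:17266483-17266517, forward strand: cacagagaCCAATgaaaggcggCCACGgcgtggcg
Creld2, chr15:88819512-88819546, forward strand: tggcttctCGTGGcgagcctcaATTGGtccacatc
Calr, chr8:84847067-84847101, reverse strand: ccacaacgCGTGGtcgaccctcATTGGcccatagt
Hsp90b1, chr10:86705525-86705664, reverse strand: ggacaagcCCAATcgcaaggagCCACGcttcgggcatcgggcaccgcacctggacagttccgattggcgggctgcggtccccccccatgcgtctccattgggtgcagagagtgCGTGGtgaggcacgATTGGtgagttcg
Syvn1, chr19:6046524-6046558, forward strand: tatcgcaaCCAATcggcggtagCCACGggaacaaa
Herpud1 (ERSE-II), chr8:94386369-94386395, forward strand: gggcgctgATTGGgCCACGttggacac

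As a group the members were higher in the follistatin libraries, most of all at day 14. Their summed FPKM was 970 to 1022 in the 6 control libraries, 1204 to 1311 in the follistatin libraries of day 3, 1306 and 1497 in those of day 7, and 2009 and 2332 in those of day 14. Every follistatin library thus lay above every control, and the libraries of day 14 lay above those of day 7 and day 3. The summed FPKM of whole libraries cannot serve as a common base, since several of the 31 genes that the authors' tables mark as having too many reads are listed at 0 in some groups and not in others. Ckm, for example, stood at 9169 to 10649 FPKM in the chronic controls and at 0 in the 4 chronic follistatin libraries. As a share of the sum over all genes but those 31, a base chosen after the values were seen, the members held 0.267% to 0.304% in controls and 0.360% to 0.400%, 0.350% and 0.425%, and 0.598% and 0.609% in the follistatin libraries of day 3, day 7 and day 14. The controls themselves spanned a wide range of levels per length, from Derl3 at 0.225 ± 0.176 FPKM to Calr at 91.0 ± 4.5 and Ssr3 at 91.2 ± 3.3 FPKM (SD, n = 6), the last 2 of which did not differ beyond their spread. In bulk muscle, a change in the number of cells of a type and a change in RNA per cell cannot be told apart.

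**Figure D1:**
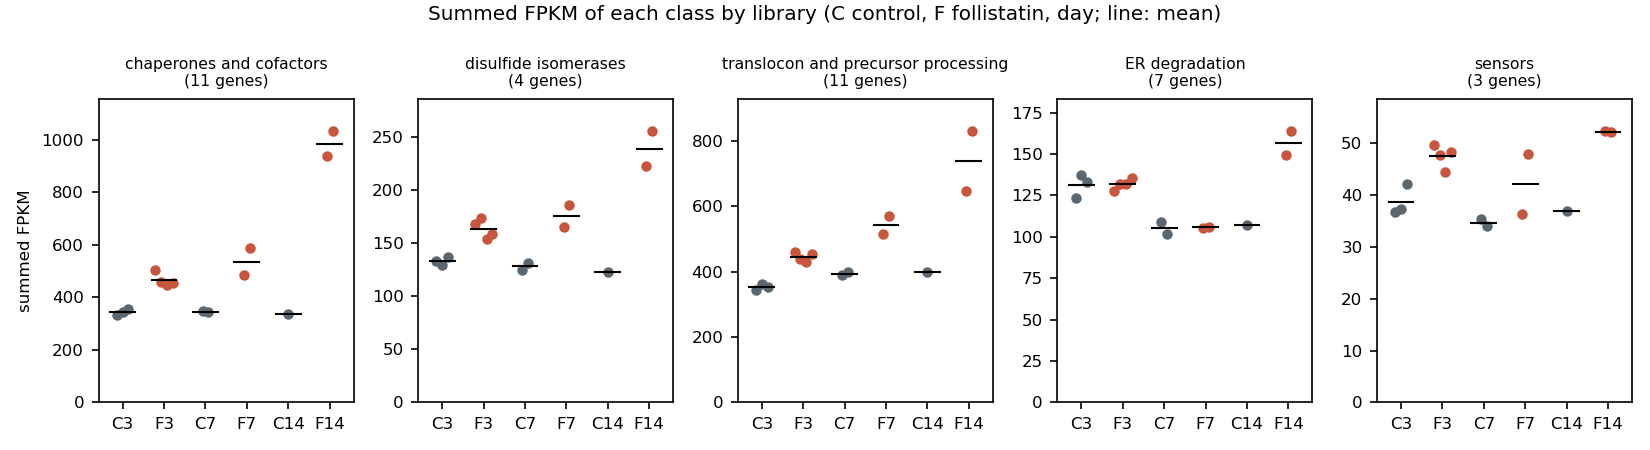
Summed FPKM of the members of each class (y axis, from 0) in each library, grouped by treatment and day (x axis; C control, F follistatin); points are libraries and lines are group means. Chaperones, disulfide isomerases and translocon genes were highest in the 2 follistatin libraries of day 14, while ER degradation differed little from control at day 3 and day 7.

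Of the 36 members, 35 passed the filter of a mean of 1 FPKM and were tested with limma; Derl3 was below it. At day 3, 5 were called higher, meaning a Benjamini-Hochberg adjusted p under 0.05 over all genes tested, and 0 lower; over all genes 0.923% were called higher and 0.568% lower. With no adjustment, p was under 0.05 for 18 members that were higher and 0 that were lower. The log2 change was above 0 for 32 of 35, with a median of 0.27 against 0.01 over all genes. In 20 of 35 every follistatin library lay above every control, as in 8.31% of all genes. Over the chronic libraries 8 members were called higher and 0 lower by limma, against 2.24% and 3.27% of all genes, and 24 were higher and 0 lower with an unadjusted p under 0.05. The median change was 0.59 against -0.09 over all genes, 33 of 35 were above 0, and the groups lay apart and higher in 23 (8.96% of all genes). Hspa5, Manf, Ostc and Pdia6 were called in both sets.

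These counts rested on few libraries. The day 3 count was 2 without control replicate 1 or 3 and 3 without control replicate 2, while Hspa5 and Pdia6 were called whichever library was left out. Over all genes 168 were called at day 3 with every library, and 39, 51 and 80 without control replicate 1, 2 and 3. The chronic count was 0 without control day 7 replicate 1, with 33 of 35 members still above 0 and a median change of 0.56. In that fit 17 members were higher and 0 lower with an unadjusted limma p under 0.05. The chronic count was 1 without control day 7 replicate 2 and 0 without the day 14 control, where 145 and 62 of all genes were called. It was 18 without follistatin day 7 replicate 1, 5 without follistatin day 7 replicate 2 and 3 without follistatin day 14 replicate 1. All genes called were 907, 405 and 251 in that order, against 608 with every library. Rescaling to the median ratio of all genes changed the chronic split over all genes from 247 higher and 361 lower to 314 and 232, and gave 9 members higher and 0 lower.

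**Figure D2:**
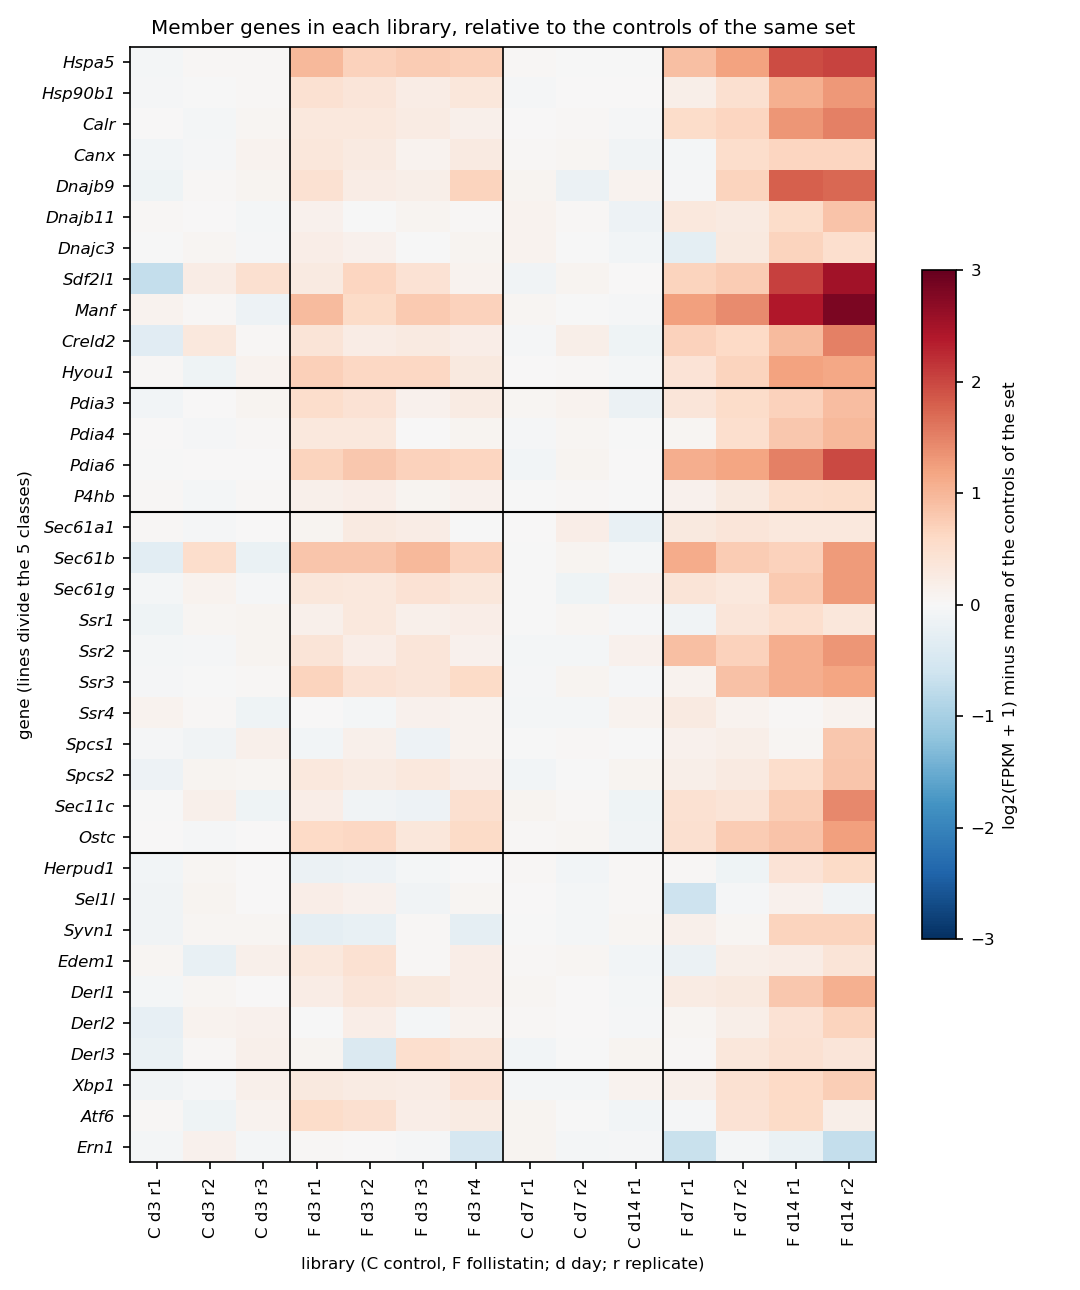
Log2(FPKM + 1) of each member (y axis, in classes divided by lines) in each library (x axis; C control, F follistatin, d day, r replicate), as the difference from the mean of the controls of its set (day 3, or days 7 and 14). Red is higher. Manf, Sdf2l1 and Hspa5 had the highest values of the members in both follistatin libraries of day 14, and Ern1 was below the controls there.

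The chaperones and cofactors had the highest class medians, 0.35 at day 3 and 0.94 in the chronic set (0.92 without control day 7 replicate 1), and 2 of 11 were called higher at day 3 and 4 of 11 in the chronic set. The largest single change at day 3 was that of the translocon gene Sec61b (0.84), which was not called. Hspa5 (chr2:34771970-34777547, forward strand) encodes BiP, the Hsp70 of the ER lumen and a regulator of the stress sensors. It stood at 79.8, 85.8 and 86.0 FPKM in the controls of day 3 and at 165, 136, 142 and 139 FPKM in the follistatin libraries. Later the controls held 84.5 and 81.8 FPKM at day 7 and 82.4 at day 14, against 156 and 194 (day 7) and 322 and 341 FPKM (day 14) with follistatin. All controls lay within a narrow band, and the groups did not overlap on any day. The means differed by 1.73-fold at day 3 (log2 change 0.78, SE 0.08, limma adjusted p = 0.00516) and 3.06-fold in the chronic set (1.52, SE 0.27, adjusted p = 0.0251). Without control day 7 replicate 1 the chronic change was 1.54, with an adjusted p of 0.124.

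Manf (chr9:106838312-106891979, reverse strand), a secreted cofactor of BiP, had the largest log2 change of the members in the chronic set, ranked 42 of 11047 genes by rise. Its controls held 5.55, 5.25 and 4.45 FPKM at day 3, where the follistatin libraries held 10.8, 8.08, 9.39 and 8.85 FPKM. The later controls held 5.91, 5.62 and 5.48 FPKM, against 14.7 and 17.0 (day 7) and 34.5 and 46.4 FPKM (day 14) with follistatin. No follistatin library fell within the control range. At day 3 the log2 change was 0.75 (SE 0.11, limma adjusted p = 0.0181), and in the chronic set it was 1.98 (SE 0.37, adjusted p = 0.0285), or 2.00 with an adjusted p of 0.134 without control day 7 replicate 1. On the other strand, Manf shares 146 exon bases with Dcaf1 and 166 with an antisense gene, and the strand setting of the libraries is not given in the sources used here, so reads from those bases cannot be assigned to one gene.

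Hyou1 (chr9:44379490-44392369, forward strand), the large Hsp70-like exchange factor of BiP, was not called at day 3 and was called in the chronic set. It stood at 6.72, 5.91 and 7.06 FPKM in controls and at 11.3, 10.7, 10.6 and 8.18 FPKM in follistatin libraries at day 3, a change of 0.56 (SE 0.12) with a limma adjusted p of 0.0671. Later it stood at 7.73, 7.83 and 7.34 FPKM in controls, at 10.5 and 12.6 FPKM with follistatin at day 7 and at 19.0 and 18.2 at day 14. The groups lay apart at both times, and the chronic change was 0.86 (SE 0.20, adjusted p = 0.0480), or 0.87 with an adjusted p of 0.194 without control day 7 replicate 1. Creld2 (chr15:88819646-88826683, forward strand), a secreted protein induced by ER stress, overlapped between groups at day 3, with 3.08, 5.47 and 4.32 FPKM in controls and 5.78, 5.03, 5.30 and 5.0 FPKM with follistatin. Its chronic controls held 3.55, 4.35 and 3.26 FPKM, against 6.65 and 6.12 (day 7) and 8.01 and 12.4 FPKM (day 14). The later groups lay apart, with a change of 0.94 (SE 0.22, limma adjusted p = 0.0488), or 0.92 with an adjusted p of 0.198 without control day 7 replicate 1.

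Hsp90b1, which encodes GRP94, the Hsp90 of the ER, carried 2 ERSE matches and was not called. It stood at 59.2, 59.9 and 62.2 FPKM in controls and 83.4, 78.6, 70.2 and 76.9 FPKM with follistatin at day 3. In the chronic set the controls held 58.2, 60.4 and 59.8 FPKM and the follistatin libraries 66.9 and 83.3 (day 7) and 126 and 148 FPKM (day 14). The groups did not overlap, and the changes were 0.35 (SE 0.07, limma adjusted p = 0.0642) and 0.75 (SE 0.26, adjusted p = 0.114; 0.74 and 0.305 without control day 7 replicate 1). Hsp90b1 shares 415 exon bases with the pseudogene 1810014B01Rik on the other strand, and 133 and 84 with Gm25745 and Gm15344 on its own. The lectin chaperone Calr changed by 0.25 at day 3 and 1.01 in the chronic set (limma adjusted p = 0.129 and 0.0531), the latter with an adjusted p of 0.200 without control day 7 replicate 1. Its membrane-bound relative Canx changed by 0.25 and 0.44 (0.46 without that library). The other cofactors of this class that were not called, Dnajb9, Dnajb11, Dnajc3 and Sdf2l1, ranged from 0.06 to 0.38 at day 3 and from 0.29 to 1.5 in the chronic set. Their chronic values were 1.07, 0.55, 0.34 and 1.45, in the same order, without control day 7 replicate 1. Dnajb9, Dnajb11 and Dnajc3 are DnaJ proteins that pass substrates to BiP.

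Among the disulfide isomerases, which form and rearrange disulfide bonds, 1 of 4 was called in each set, with medians of 0.26 and 0.61 (0.61 in the chronic set also without control day 7 replicate 1, where none was called). This was Pdia6 (chr12:17266545-17284770, forward strand), an isomerase that works with BiP. It stood at 20.9, 21.4 and 21.2 FPKM in the controls of day 3 and at 34.1, 38.0, 34.5 and 33.6 FPKM with follistatin. Its chronic controls held 20.0, 22.4 and 21.2 FPKM, the follistatin libraries 46.3 and 49.5 (day 7) and 62.2 and 86.6 FPKM (day 14). Every follistatin library lay above every control, and the day 14 libraries were the highest. For day 3 the log2 change was 0.70 (SE 0.07, limma adjusted p = 0.00399), and in the chronic set it was 1.44 (SE 0.21, adjusted p = 0.0131), or 1.41 with an adjusted p of 0.0885 without control day 7 replicate 1. P4hb, the main protein disulfide isomerase and the most abundant of this class at 77.3 ± 3.0 FPKM (SD, n = 6 controls of both sets), changed by 0.14 and 0.37. Pdia3 changed by 0.33 and 0.63 and Pdia4 by 0.19 and 0.59, and none of these 3 was called. The chronic changes of P4hb, Pdia3 and Pdia4 were 0.37, 0.66 and 0.56 without control day 7 replicate 1. Pdia6 shares 50 exon bases with Atp6v1c2 and Pdia3 shares 18 with Catsper2, both on the other strand.

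**Figure D3:**
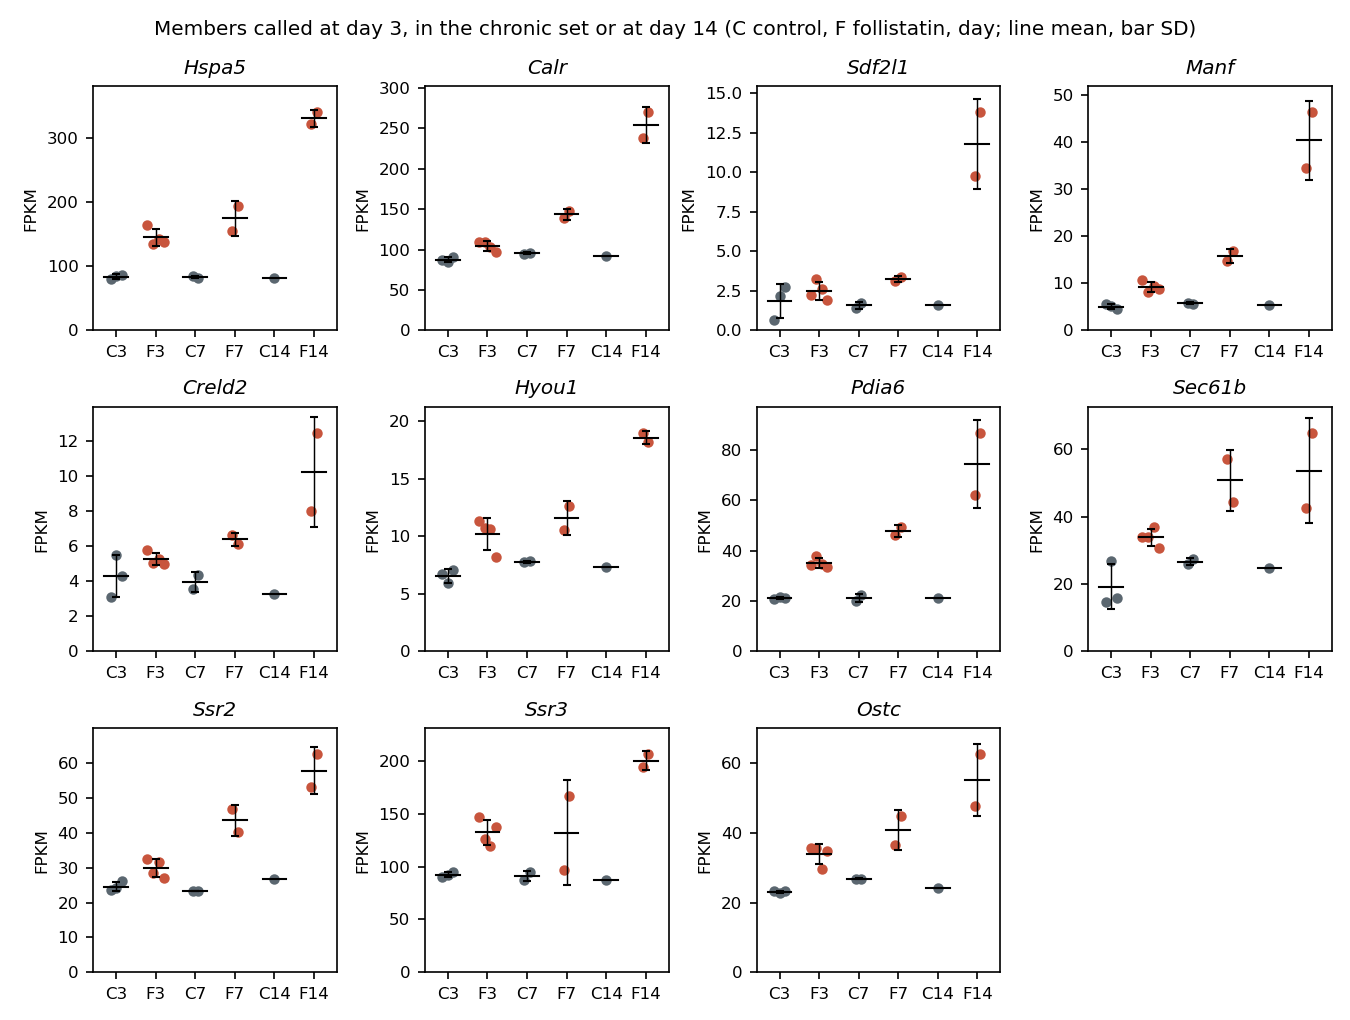
FPKM (y axis, from 0) of the 11 members called at day 3, in the chronic set or at day 14, in each library by treatment and day (x axis; C control, F follistatin). Points are libraries, lines are means and bars are SD; the day 14 control is 1 library. The controls stayed level for Hspa5 and Pdia6, and the follistatin libraries of day 14 were the highest in most panels.

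In the translocon and precursor-processing class all 11 genes changed by more than 0 in both sets, with medians of 0.27 and 0.69 (0.69 in the chronic set also without control day 7 replicate 1), though Spcs1 stood at -0.01 at day 3 after rescaling by the median ratio or quantile normalization. At day 3, 2 were called and in the chronic set 3, or 0 without that library. The channel itself is built of Sec61a1, Sec61b and Sec61g. Its pore subunit Sec61a1 stood at 8.82, 8.43 and 8.75 FPKM in controls and 9.15, 10.7, 10.2 and 8.61 FPKM with follistatin at day 3. It stood at 7.90, 9.09 and 6.48 FPKM in the chronic controls, 9.78 and 10.2 (day 7) and 9.98 and 9.86 FPKM (day 14) with follistatin. The groups overlapped at day 3 and lay apart later, with changes of 0.14 and 0.32 and limma adjusted p of 0.529 and 0.119 (0.33 and 0.310 for the chronic set without control day 7 replicate 1). Sec61a1 shares 549 exon bases with an antisense gene. Its small partner Sec61b (chr4:47474658-47483242, forward strand) held 14.7, 26.9 and 15.9 FPKM in controls and 33.8, 33.9, 37.0 and 30.6 FPKM with follistatin at day 3. It held 25.9, 27.4 and 24.7 FPKM in the chronic controls, 57.1 and 44.5 (day 7) and 42.6 and 64.8 FPKM (day 14) with follistatin. Its groups lay apart at both times. At day 3 the controls spread widely and the change of 0.84 (SE 0.19) had a limma adjusted p of 0.0757. In the chronic set the change was 0.96 (SE 0.16, adjusted p = 0.0202), or 0.96 with an adjusted p of 0.113 without control day 7 replicate 1. The remaining small subunit Sec61g changed by 0.36 and 0.69 and was not called (limma adjusted p = 0.0546 and 0.104, the latter 0.288 without control day 7 replicate 1).

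The translocon-associated protein complex, which assists import of selected precursors, is encoded by Ssr1 to Ssr4. Ssr3 (chr3:65379655-65392623, reverse strand), with Calr one of the 2 most abundant members at 91.2 ± 3.3 FPKM (SD, n = 6 controls), was called at day 3. It held 90.4, 91.8 and 95.3 FPKM in controls and 147, 126, 119 and 137 FPKM with follistatin, a change of 0.51 (SE 0.08, limma adjusted p = 0.0207). Later it held 87.5, 94.7 and 87.8 FPKM in controls, 96.8 and 167 (day 7) and 194 and 206 FPKM (day 14) with follistatin. Its groups lay apart in both sets, though follistatin day 7 replicate 1 was close to the controls, and the chronic change of 0.82 (SE 0.25) had a limma adjusted p of 0.0878 (0.80 and 0.266 without control day 7 replicate 1). Ssr2 (chr3:88575876-88588419, forward strand) held 23.5, 24.1 and 26.1 FPKM in controls and 32.5, 28.4, 31.7 and 27.0 FPKM with follistatin at day 3, a change of 0.27 (SE 0.09, limma adjusted p = 0.194). Its chronic controls held 23.2, 23.4 and 26.8 FPKM, against 46.7 and 40.3 (day 7) and 53.0 and 62.5 FPKM (day 14). Both sets lay apart, and the chronic change was 1.00 (SE 0.16, adjusted p = 0.0166), or 0.97 with an adjusted p of 0.102 without control day 7 replicate 1. Ssr2 shares 239 exon bases with the processed pseudogene Gm10704 on the other strand. Ssr1 changed by 0.20 and 0.28 and Ssr4 by 0.05 and 0.14 and neither was called (0.27 and 0.11 in the chronic set without control day 7 replicate 1); no test compared the subunits with each other.

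Ostc (chr3:130695912-130709444, reverse strand), a subunit of the oligosaccharyltransferase that couples N-glycosylation to the translocon, was called in both sets. It held 23.3, 22.7 and 23.3 FPKM in the controls of day 3 and 35.6, 35.8, 29.6 and 34.8 FPKM with follistatin. Among the chronic libraries it held 26.7, 26.9 and 24.1 FPKM in controls, 36.6 and 44.8 (day 7) and 47.8 and 62.5 FPKM (day 14) with follistatin. No follistatin library overlapped the controls. The changes were 0.53 (SE 0.08, limma adjusted p = 0.0201) and 0.84 (SE 0.17, adjusted p = 0.0369), the latter 0.86 with an adjusted p of 0.161 without control day 7 replicate 1. The signal peptidase genes Spcs1, Spcs2 and Sec11c, whose complex removes signal peptides, were not called: Spcs2 changed by 0.27 and 0.45, Sec11c by 0.10 and 0.76, and Spcs1 by 0.01 and 0.29. Their chronic changes without control day 7 replicate 1 were 0.41, 0.79 and 0.28. Spcs1 shares 252 exon bases with Glt8d1.

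**Figure D4:**
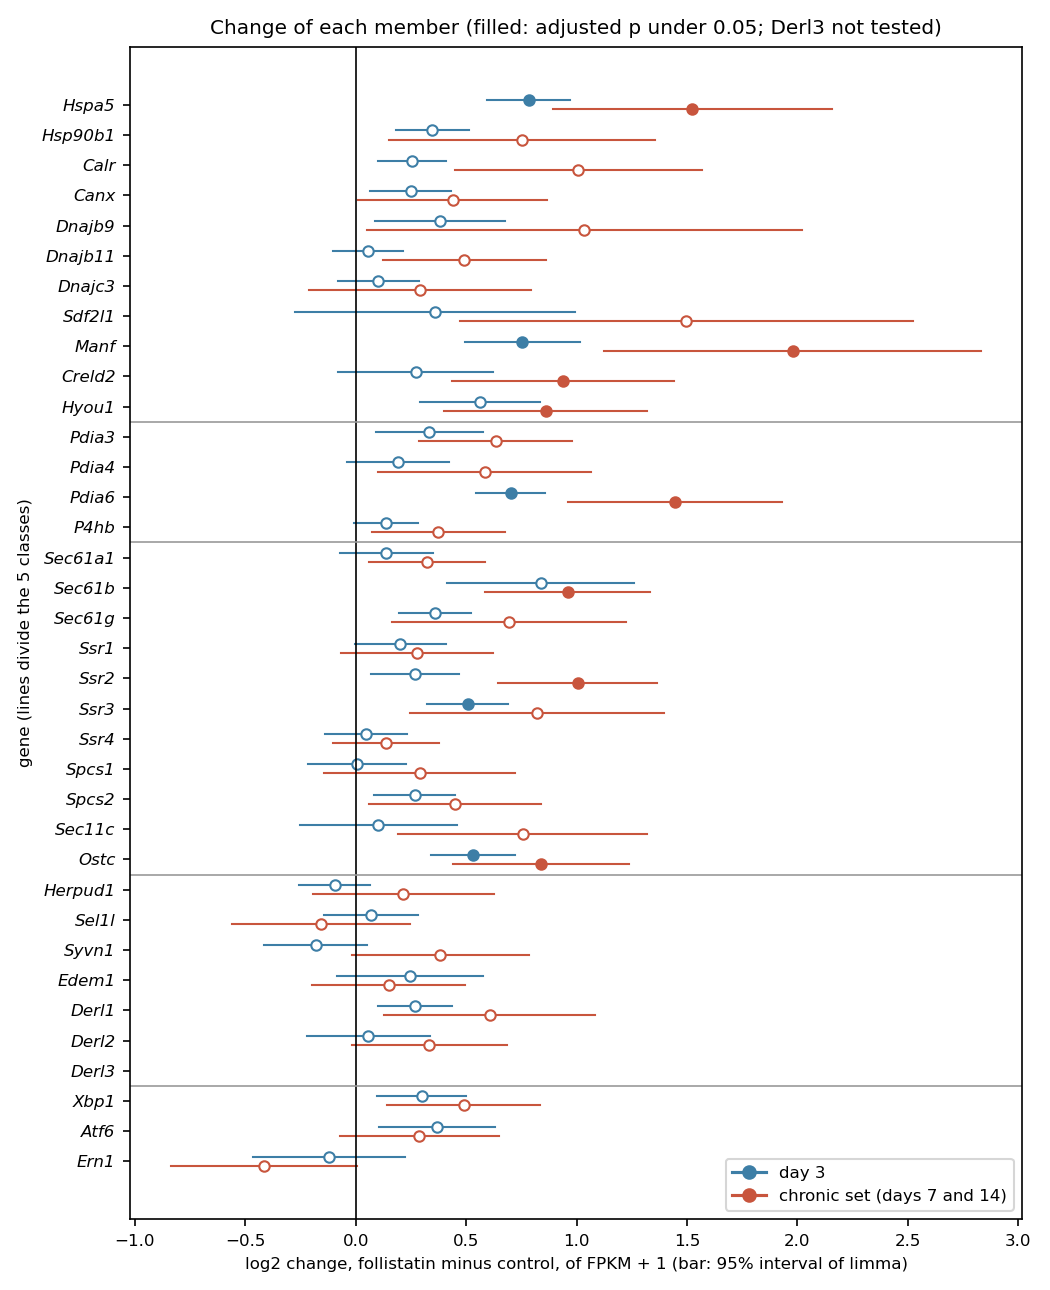
Log2 change of FPKM + 1, follistatin minus control (x axis), of each member (y axis, in classes) at day 3 and in the chronic set, with the 95% interval of limma as a bar and filled points where the adjusted p was under 0.05. The intervals of the chronic set are wider, and only Herpud1, Syvn1, Sel1l and Ern1 have a point below 0 in either set; Derl3 was not tested.

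None of the 6 tested genes of ER-associated degradation was called by limma in either set (1 with an unadjusted p under 0.05 in each, Derl1), and their medians were 0.06 and 0.27 (0.29 in the chronic set without control day 7 replicate 1). Derl1, a channel component for the export of misfolded proteins, changed by 0.27 and 0.61 (limma adjusted p = 0.133 and 0.110). The ubiquitin ligase Syvn1, which carries an ERSE, changed by -0.18 and 0.38, and its partner Sel1l by 0.07 and -0.16. Herpud1, which carries an ERSE-II, changed by -0.09 and 0.22, the mannosidase-like protein Edem1 by 0.25 and 0.15, and Derl2 by 0.06 and 0.33. Without control day 7 replicate 1 the chronic changes were 0.63 for Derl1, 0.38 for Syvn1, -0.15 for Sel1l, 0.24 for Herpud1, 0.17 for Edem1 and 0.35 for Derl2, and none was called. On the other strand Derl2 shares 231 exon bases with Mis12 and Syvn1 shares 91 with Mrpl49. Derl3 was low throughout: 0.175, 0.387 and 0.491 FPKM in controls and 0.413, 0, 0.904 and 0.769 FPKM with follistatin at day 3. Among the later libraries it held 0.0379, 0.0969 and 0.161 FPKM in controls and 0.120, 0.394, 0.509 and 0.423 FPKM with follistatin at days 7 and 14. The groups of Derl3 overlapped in both sets.

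The sensors were not called in either set. Xbp1, the transcription factor activated by IRE1 splicing, stood at 24.6, 25.7 and 29.7 FPKM in controls and 33.0, 31.8, 31.1 and 35.9 FPKM with follistatin at day 3. Its chronic controls held 23.8, 23.6 and 26.7 FPKM, against 27.5 and 34.4 (day 7) and 37.9 and 42.0 FPKM (day 14). The groups lay apart, with changes of 0.30 (SE 0.09, limma adjusted p = 0.162) and 0.49 (SE 0.15, adjusted p = 0.0894; 0.46 and 0.284 without control day 7 replicate 1). Gene-level FPKM do not separate spliced from unspliced Xbp1. Atf6, the sensor that is cleaved to a transcription factor, stood at 8.81, 7.71 and 9.22 FPKM in controls and 13.1, 12.3, 9.94 and 10.3 FPKM with follistatin at day 3. It held 8.09, 7.42 and 7.09 FPKM in chronic controls and 7.28, 10.6, 11.8 and 8.6 FPKM with follistatin at days 7 and 14. The groups lay apart at day 3 (0.37, SE 0.11, limma adjusted p = 0.181) and overlapped later (0.29, SE 0.16, adjusted p = 0.258; 0.33 and 0.400 without control day 7 replicate 1). Ern1, which encodes IRE1 alpha, was the only member whose later follistatin libraries all lay below the controls: 3.38, 2.96 and 3.01 FPKM in controls, 1.57 and 2.95 (day 7) and 2.55 and 1.5 FPKM (day 14) with follistatin. At day 3 it held 3.26, 3.84 and 3.25 FPKM in controls and 3.56, 3.46, 3.35 and 2.16 FPKM with follistatin, which overlap. Its changes were -0.12 (SE 0.15, limma adjusted p = 0.765) and -0.42 (SE 0.18, adjusted p = 0.182; -0.37 and 0.423 without control day 7 replicate 1).

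Within the chronic set the days were also compared in a fit of 4 group means. At day 7, 0 members were called by limma in either direction (11 higher and 0 lower with an unadjusted p under 0.05), where 0.154% of all genes were called higher and 0.0634% lower; the groups lay apart and higher in 25 of 35 (18.3% of all genes). At day 14 the single control was assumed to vary like the other groups. There 4 members, all chaperones or cofactors, were called higher and 0 lower, against 0.226% and 0.281% of all genes, and 26 were higher and 0 lower with an unadjusted p under 0.05; the groups lay apart and higher in 32 of 35 (27.2% of all genes). These were Manf (2.66, SE 0.22, limma adjusted p = 0.0122), Sdf2l1 (2.27, SE 0.23, adjusted p = 0.0304), Hspa5 (1.99, SE 0.20, adjusted p = 0.0252) and Calr (1.45, SE 0.17, adjusted p = 0.0470). Sdf2l1, a cofactor of ER DnaJ proteins (chr16:17130138-17132383, reverse strand), held 1.43 and 1.76 FPKM in the controls of day 7 and 1.61 at day 14, against 3.11 and 3.40 (day 7) and 9.77 and 13.8 FPKM (day 14) with follistatin. Calr (chr8:84841850-84846934, reverse strand) held 94.8 and 96.3 FPKM in the controls of day 7 and 92.2 at day 14, against 139 and 148 (day 7) and 238 and 270 FPKM (day 14) with follistatin. For both genes the libraries of day 7 lay between the controls and those of day 14. At day 3 Sdf2l1 spread from 0.657 to 2.77 FPKM in controls and from 1.92 to 3.22 with follistatin, and its groups overlapped.

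The call of 4 members at day 14 was 0 without control day 7 replicate 1, control day 7 replicate 2 or follistatin day 7 replicate 1, 1 without follistatin day 7 replicate 2 or follistatin day 14 replicate 2, and 3 without follistatin day 14 replicate 1. Without control day 7 replicate 1 the changes of day 14 are the same by construction and the adjusted p of these 4 were 0.0982 for Manf, 0.175 for Sdf2l1, 0.175 for Hspa5 and 0.268 for Calr, while the median change at day 7 was 0.27 with and without it. The median over the members was 0.27 at day 7 and 0.90 at day 14, and the class medians at day 7 and day 14 were 0.51 and 1.37 for chaperones, 0.32 and 0.94 for disulfide isomerases, 0.37 and 0.90 for translocon genes, 0.03 and 0.52 for ER degradation and 0.16 and 0.45 for sensors. The effect of day 14 minus that of day 7, a comparison added after the values were seen, had a median of 0.57 over the members against -0.00 over all genes, with 33 of 35 above 0. No member was called for it by limma in either direction (11 higher and 0 lower with an unadjusted p under 0.05), where 5 of 11047 genes were called higher (0.0453%) and 29 lower. The chronic effect minus the effect of day 3 was likewise called for 0 members (8 higher and 0 lower with an unadjusted p under 0.05). Of all 11306 genes, 7 were called higher for it (0.0619%) and 3 lower. The median of that difference over the members was 0.31 against -0.11 over all genes. After rescaling by the median ratio that background was -0.00 and the member median 0.43. No difference in effect between times was thus shown for a single member.

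**Figure D5:**
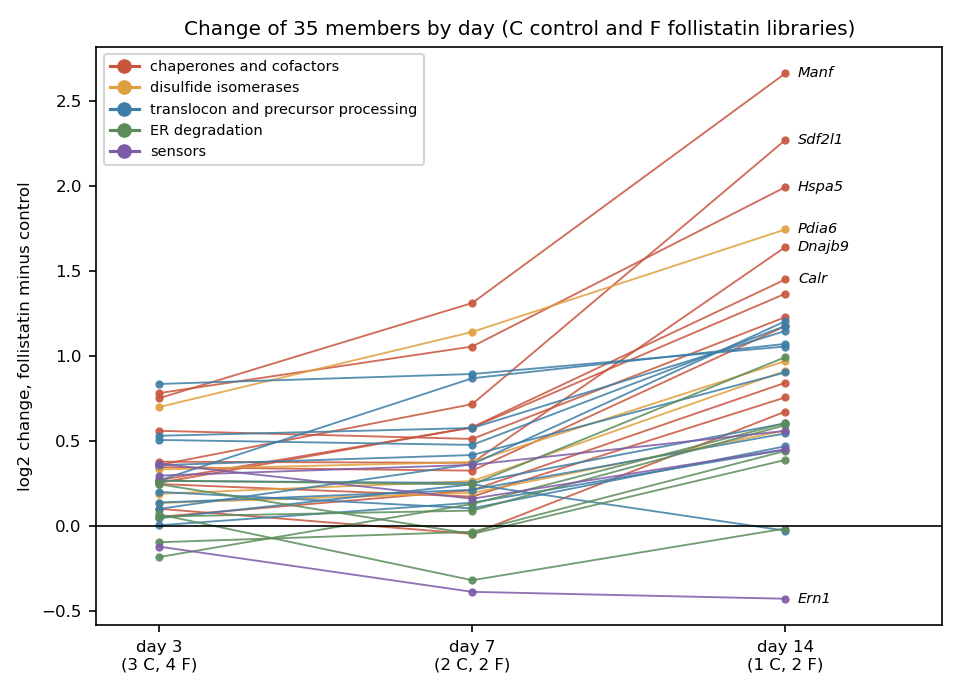
Log2 change, follistatin minus control (y axis), of the 35 tested members at day 3, day 7 and day 14 (x axis, with the number of control, C, and follistatin, F, libraries); lines join the values of a gene and colours mark the classes. Chaperones reach the highest values at day 14, led by Manf at 2.66 and Sdf2l1 at 2.27, and Ern1 is below 0 at each day; the day 14 values rest on 1 control library.

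The members that carry an ERSE were set beside those without. Of the 9, 8 were tested; their median change was 0.26 at day 3, 0.85 in the chronic set, 0.45 at day 7 and 1.27 at day 14. The 19 members with a promoter window and no ERSE had medians of 0.20, 0.45, 0.25 and 0.59. The chronic medians were 0.83 with and 0.41 without an ERSE when control day 7 replicate 1 was left out. The tested members with an ERSE were mostly chaperones, the class with the highest medians, so this contrast is mixed with class. Among chaperones with a window, day 14 changes ran from 0.67 (Dnajc3) to 1.99 (Hspa5) with an ERSE. Without one they were 2.27 (Sdf2l1), 1.64 (Dnajb9) and 0.84 (Dnajb11), so the ranges overlapped. A difference by ERSE within a class was not tested. Sdf2l1, called at day 14, had no ERSE in its window, Manf had no window in the table, and Canx, Dnajc3, Hsp90b1 and Syvn1 carried an ERSE and were not called at any time. Of 28 other genes with an ERSE 5 were tested, 0 were called by limma at any of these times, and their medians were -0.10, -0.41, -0.32 and -0.46. A match in a window is a description of sequence, and binding of ATF6 or XBP1 was not measured.

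The authors' deposited Cuffdiff tables, made from the reads of the same libraries, marked 10 of 35 members as significant and higher at day 3 and 0 lower, where 3.06% of the genes they tested were marked higher. For the chronic set those deposited tables marked 22 members higher, against 6.64% of genes, and 1 lower, Ern1, with a log2 fold change of -0.57 and a q-value of 0.0439. Beside the members called by limma at day 3, the authors' deposited table marked Hsp90b1, Dnajb9, Hyou1, Atf6 and Sec61b. In the chronic set it marked, among those that limma did not call, Sdf2l1 (2.23), Dnajb9 (1.22), Calr (1.06), Ssr3 (0.87) and Xbp1 (0.51), values that are the authors' deposited log2 fold changes without an added constant. Of the ER degradation genes it marked Derl1 alone (0.66, Cuffdiff q-value 0.00158).

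The other genes of these pathways were counted in the same way. Of other ER folding enzymes, 0 of 22 tested at day 3 and 0 of 23 in the chronic set were called by limma (3 and 8 higher, and 0 and 1 lower, with an unadjusted p under 0.05), with medians of 0.10 and 0.20. Of other targeting, translocation and glycosylation genes, Magt1 was called at day 3 (0.45, limma adjusted p = 0.0405), and Ddost (0.61, adjusted p = 0.0430) and Rpn2 (0.48, adjusted p = 0.0349), which like Ostc belong to the oligosaccharyltransferase, were called in the chronic set, of 23 and 24 tested. Neither was called without control day 7 replicate 1 (0.56 for Ddost and 0.48 for Rpn2, adjusted p = 0.200 and 0.180). Of 22 other ER degradation genes 0 were called by limma at either time (1 higher and 2 lower with an unadjusted p under 0.05 at each), with medians of -0.01 and -0.03. Of 17 genes of ER export and retrieval, Sec23b, a coat protein of export vesicles, was called higher at day 3 (0.58, limma adjusted p = 0.0241) and 0 in the chronic set (1 higher and 0 lower with an unadjusted p under 0.05). Of 11 other sensors and stress factors 0 were called by limma at either time (1 higher and 0 lower with an unadjusted p under 0.05 at each).

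The PERK arm, which slows translation and raises Atf4 and its targets, was counted likewise: of 11 tested genes 0 were called higher in either set and 1 lower in each. With an unadjusted limma p under 0.05, 2 were higher and 2 lower at day 3, and 0 were higher and 2 lower in the chronic set. Chac1, a glutathione-degrading enzyme and target of that arm, fell by 3.24 on the log2 scale at day 3 (38.5 ± 18.0 FPKM in 3 controls against 3.27 ± 1.97 in 4 follistatin libraries, SD; limma adjusted p = 0.0110). Nfe2l2, a regulator of antioxidant genes, fell by 0.50 in the chronic set (limma adjusted p = 0.0328; -0.44 and 0.183 without control day 7 replicate 1). The medians of that list were 0.11 and -0.07. Its lowest change was -2.53 in the chronic set, -3.82 at day 7 and -0.88 at day 14, which has 1 control. None of these lowest changes was called. Of 14 tested cytosolic and mitochondrial chaperones, 0 were called by limma at day 3 (4 higher and 0 lower with an unadjusted p under 0.05), and Hspa8 (0.57, adjusted p = 0.0167) and Cct3 (0.46, adjusted p = 0.0413) were called higher in the chronic set. Without control day 7 replicate 1 they were not called (0.59 and 0.46, adjusted p = 0.106 and 0.194).

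Markers of other cells also moved. Of 11 listed markers of plasma and B cells, which are rich in ER, 9 had values, and Ighm and Igkc had none. Their sum at day 3 was 2.56 to 3.68 FPKM in controls and 2.24 to 4.31 FPKM with follistatin. In the chronic set it was 2.74 to 3.16 FPKM in controls and 3.32 to 4.24 FPKM with follistatin, which lay apart. Only Sdc1 passed the filter, with a chronic change of -0.25, and it was not called in either set. Of 10 tested macrophage and myeloid markers 10 were above 0 in the chronic set, with a median change of 0.64 and 0 called by limma (0 in either direction with an unadjusted p under 0.05). The median of these markers was 0.04 at day 7. Without control day 7 replicate 1 their median was 0.49 in the chronic set and -0.39 at day 7, where 0 of 10 were above 0. At day 14 their median was 1.31, 0 were called by limma, 3 were higher and 0 lower with an unadjusted p under 0.05, and in all 10 the follistatin libraries lay above the control. Day 14 has 1 control library, and 27.2% of all genes had every follistatin library of that day above it. The macrophage and myeloid markers summed to 48.6 to 129 FPKM in the chronic controls and 77.9 to 250 FPKM with follistatin. Endothelial markers summed to 206 to 266 and 118 to 193 FPKM in the same groups (1 of 12 called lower, Tek, which had an adjusted p of 0.194 without control day 7 replicate 1), and smooth muscle and pericyte markers to 206 to 262 and 75.4 to 164 FPKM (0 of 9 called by limma, 7 lower and 0 higher with an unadjusted p under 0.05). Schwann cell markers, 7 genes, summed to 30.2 to 58.4 FPKM in the chronic controls and 15.5 to 22.9 FPKM with follistatin. All 4 tested were below 0 in the chronic set, with a median of -0.77 and 0 called by limma (3 lower and 0 higher with an unadjusted p under 0.05), and at day 14, with a median of -1.50, Mbp (-2.37, limma adjusted p = 0.00743) and Pmp22 (-1.47, adjusted p = 0.0319) were called lower. Without control day 7 replicate 1 those adjusted p were 0.0660 and 0.209. Fibroblast markers overlapped, at 544 to 943 and 520 to 848 FPKM. At day 3 the genes listed for satellite cells and myoblasts summed to 99.8 to 112 FPKM in controls and 121 to 171 FPKM with follistatin. Of 6 tested, 4 were above 0 and only the myogenic factor Myf6 was called higher (0.57, limma adjusted p = 0.00593). Whether the rise of Myf6 came from those cells or from fibres was not tested. The part of these cells in the changes of the members was not tested. Of 15 fibre markers Acta1, Myh1, Myh4 and Tnnt3 are listed at 0 in all chronic libraries, and Ckm, Tnnc2, Ttn, Mylpf and Pvalb at 0 in the chronic follistatin libraries alone, as Myh4 is in the follistatin libraries of day 3. The authors' table marks such genes as having too many reads to estimate, so they were not tested. Casq1, Neb, Myh2, Tnni2 and Actn3 were left out of the chronic tests too, though listed above 0 in every chronic library. Casq1 stood at 2397 to 2761 FPKM in chronic controls and 3170 to 4148 FPKM with follistatin. Neb (385 to 406 against 220 to 360 FPKM) and Myh2 (82.4 to 172 against 13.5 to 59.0 FPKM) lay lower with follistatin, and Tnni2 and Actn3 overlapped. Only 1 of the 15 could be tested in the chronic set, Ryr1, a calcium release channel of the sarcoplasmic reticulum, which stood at 311 ± 39 FPKM in 3 chronic controls and 191 ± 27 in 4 follistatin libraries (SD) and was called lower (-0.71, limma adjusted p = 0.0404; -0.65 and 0.195 without control day 7 replicate 1).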

How the data were processed

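Poly(A) RNA was sequenced in 14 libraries. Per the submitters' processing notes, TopHat, Cuffdiff and mm10 were used; versions, annotation and strand setting are not given in the sources used here. Each deposited file gives the FPKM of every gene in 1 library, and the authors' deposited Cuffdiff tables hold log2 fold changes, test scores (Cuffdiff's statistic), p-values and q-values. Each library lists 24386 genes; 27 with symbols turned into dates were left out, as were, from the tests, genes marked as having too many reads (4 at day 3 and 31 in the chronic set).

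Tests were two-sided, with limma 3.58.1 in R 4.3.3 (lmFit, eBayes with trend). Its input was log2(FPKM + 1), filtered to a gene mean of 1 FPKM or more, and p-values were adjusted by Benjamini-Hochberg over all genes tested. Log2 changes are on that scale, which understates the change of genes with low FPKM. Days 7 and 14 were contrasts in a fit of the 7 chronic libraries. The time difference was an interaction over all 14. Values in every library are given for Hspa5, Hsp90b1, Pdia6, Sec61a1, Xbp1, Atf6, Ern1, Derl3 and each called member; other pathway genes are named where called. The members and lists were chosen with earlier results of these data known. Positions and exon overlaps are from GENCODE M21 on GRCm38 (mm10), promoters from RefSeq GRCm38.p6. The pipeline was tested on simulated data. Settings also tried (effects in the closing section) were 0.1 as pseudocount, a mean of 5 FPKM or no filter, median ratio and quantile scaling, robust eBayes, leaving out 1282 small RNA genes, day as a covariate, day 7 alone, a replicate block, all 14 libraries in 1 fit, and each library left out. Whether replicate numbers pair the samples is not known, and the main tests treated the samples as unpaired. A gene of the marker lists is not reported here.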

Additional observations from a re-analysis of the deposited data

Results flagged for a closer look

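Of 72 groups of 4 follistatin libraries examined (36 members in each set), 4 held a library far from the other 3 by Dixon's test, where chance alone flags about 1 in 20 groups (5%). Ern1 stood at 2.16 FPKM in follistatin day 3 replicate 4, below the other 3 libraries of that group. Replicate 3 of follistatin day 3 had 51.6 FPKM of Sec61g, above the others, and 29.6 FPKM of Ostc, below the others. Spcs1 stood at 112 FPKM in follistatin day 14 replicate 2, above the other 3 follistatin libraries of the chronic set. Ostc was called at day 3 with that library in place, and the other 3 values belong to members that were not called.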

How the results depend on the processing

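Of 3480 recomputed values of single members, 3245 kept their direction and side of the threshold, 88 lost a call, 94 gained one and 53 changed sign, none of the last for a called member. Counts of members called moved as follows, and the cause was not tested. At day 3 the 5 became 9 with a mean of 5 FPKM, 8 with robust eBayes and 9 without small RNA genes. All genes called were 168 in the main fit and 236, 250 and 266 in that order. In the chronic set the 8 became 4 with no filter and 22 with all 14 libraries in 1 fit, while all genes called went from 608 to 284 and 2071. At day 7 the 0 became 1 with quantile normalization, 1 with robust eBayes, 3 without small RNA genes and 5 with all 14 libraries. All genes called were 24 in the main fit and 34, 83, 72 and 417 in that order. At day 14 the 4 became 1 with no filter, 2 with a mean of 5 FPKM, 7 with robust eBayes, 7 without small RNA genes and 23 with all 14 libraries. All genes called were 56 in the main fit and 42, 32, 147, 120 and 635 in that order. Leaving out 1 library gave 2 to 5 at day 3, 0 to 18 in the chronic set, 0 to 0 at day 7, 0 to 3 at day 14 and 0 to 0 for both differences between times; medians ranged from 0.21 to 0.30, 0.45 to 0.72, 0.21 to 0.40, 0.76 to 0.99, and 0.19 to 0.42 and 0.43 to 0.69. The fits of day 14 without its only control could not be made.

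Samples with the same replicate number did not deviate together (correlations of -0.04, -0.05 and -0.06 at day 3 and 0.02 at day 7). Samples with different numbers gave -0.04 to 0.09 at day 3. At day 7 they gave -0.02, which is the opposite of the same-number value by construction. With so few libraries these values cannot exclude that the numbers pair the samples. With a replicate block, which leaves out follistatin libraries with no control of their number, 0 members were called at day 3, 2 in the chronic set and 3 at day 7 alone. Over all genes 19, 164 and 156 were called in those fits. Spcs1 (-0.026), Sec11c (-0.021) and Ern1 (0.0046) changed sign at day 3.

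Other changes of sign, all in members not called, were Spcs1 at day 3 (-0.013 by the median ratio and -0.0079 by quantiles), Dnajc3, Herpud1 and Edem1 at day 7 (0.020, 0.039 and 0.00057 by the median ratio) and Dnajc3 and Edem1 (0.026 and 0.039 by quantiles), Ssr4 and Sel1l at day 14 (0.043 and 0.053 by the median ratio) and Sel1l (0.037 by quantiles), and Atf6 for chronic minus day 3 (0.039 and 0.025). With day 7 as the only later day, that difference was -0.020 for Hsp90b1, -0.074 for Canx, -0.0068 for Dnajb9, -0.15 for Dnajc3, -0.048 for Hyou1, -0.096 for Ssr1, -0.029 for Ssr3, -0.012 for Spcs2 and -0.023 for Derl1. Leaving out 1 library gave ranges across 0 at day 3 for Spcs1 (-0.047 to 0.076), Derl2 (-0.060 to 0.12), Ssr4 (-0.018 to 0.1), Sec11c (-0.021 to 0.19), Ern1 (-0.17 to 0.0046), and at day 7 for Dnajc3 (-0.34 to 0.25), Herpud1 (-0.12 to 0.052), Edem1 (-0.23 to 0.14), Canx (-0.12 to 0.47), Ssr1 (-0.13 to 0.34), Atf6 (-0.079 to 0.40). It did so at day 14 for Ssr4 (-0.061 to 0.0097) and Sel1l (-0.13 to 0.10), for chronic minus day 3 for Sec61b (-0.14 to 0.28), Edem1 (-0.18 to 0.014), Atf6 (-0.18 to 0.031), Ssr1 (-0.0046 to 0.20), and for day 14 minus day 7 for Ern1 (-0.35 to 0.27), Sec61b (-0.13 to 0.46), Spcs1 (-0.069 to 0.69). Without counts, the part of sequencing depth in the spread of low genes such as Derl3 and Sdf2l1 is unknown.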
